A study of Homo sapiens with 12 samples.

Results

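The proteasome genes described here are the gene names of the count table formed by PSMA to PSMG and a number, with POMP and ADRM1 added. They came to 50 of 59385 names, of which 19 encode the core particle (PSMA and PSMB), 20 carry the names of the regulatory particle (PSMC and PSMD) and 11 are other factors (PSME1 to PSME4, PSMF1, PSMG1 to PSMG4, POMP and ADRM1). Polysome-seq had been performed on HEK293T cells, a human embryonic kidney line that expresses the SV40 large T antigen, in 4 groups of 3 libraries each. The shCtrl cells carried a non-silencing control shRNA and the shPRRC2B cells an shRNA against PRRC2B, an RNA-binding protein, both from a Dox-inducible vector with a red fluorescent reporter and both under Dox for 36 h. From each line, poly(A)-selected total RNA and polysome-associated RNA (gradient fractions 6 to 10, combined) were sequenced. Each shRNA was represented by a stable single-clone line, so the shRNA and the clone cannot be told apart. The labels call the 3 libraries of a group biological replicates without saying how the cultures were separated, and p-values therefore measure the spread between these libraries.

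The 26S proteasome degrades ubiquitin-tagged proteins. Its core particle is a barrel of outer alpha rings (PSMA genes) and inner beta rings (PSMB genes), and 3 beta subunits, PSMB5, PSMB6 and PSMB7, hold the constitutive protease sites. PSMB8, PSMB9 and PSMB10 take their places in the immunoproteasome. The regulatory particle caps the barrel, with a ring of ATPases (PSMC genes) that unfold substrates and non-ATPase subunits (PSMD genes) that bind and remove ubiquitin. PSMD5, PSMD9 and PSMD10 bear regulatory particle names but are chaperones of its base that are not kept in the finished particle. PSMG1 to PSMG4 and POMP build the core particle, and the PSME and PSMF1 products are alternative caps or inhibitors. The transcription factors NFE2L1 and NFE2L2 act through antioxidant response elements, and NFE2L1 is known to raise proteasome genes together when proteasome activity is limiting.

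PRRC2B itself was at 281 ± 28.7 CPM (read counts scaled to library size with TMM factors, mean ± SD, n = 3) in total RNA of shCtrl cells and at 100.3 ± 2.32 in shPRRC2B cells, which agreed in direction with the labels. Library totals ran from 9855734 to 20837542 counts. Of the HEK293T markers examined, LHX1 was close to absent (0 to 7 counts) and the other 6 were detected in every library, and 6 markers of leukocytes, hepatocytes, endothelium, fibroblasts, podocytes and kidney tubule had 0 to 6 counts. The lowest correlation of a polysome library with another of its group was 0.9736, against 0.9939 for total RNA. Values are shares of a bulk library, so fewer cells and less RNA per cell cannot be told apart.

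Of the 50 members, 45 had enough counts to be tested among 18166 genes (14 core, 20 regulatory and 11 other). PSMA8, a testis form of an alpha subunit, had 0 to 4 counts, and PSMB3, PSMB8, PSMB9 and PSMB11 had 0 counts in all 12 libraries. These zeros were not read as missing expression. PSMB3 belongs to the core particle of every cell, and PSMB3, PSMB8 and PSMB9 were the 3 members with near-identical copies on alternate contigs of the reference (1, 7 and 7 copies), where a read pair maps to more than 1 place and is not counted. Whether the authors' index held these contigs is not given in the sources used here, and their part in the zeros was not tested. Reads of overlapping genes were also not counted. All bases of the PSMA2 transcript (100%) and 81.4% of those of PSMA6 are shared with an overlapping gene name, and these subunits had only 0 to 47 and 48 to 303 counts, while tested members that share no bases had 245 counts or more in every library except PSMD5. The shares were 83.2% for PSMC1, 67.0% for PSMA1, 56.1% for PSMB10, 51.6% for PSMD7, 28.8% for PSMD9, 26.7% for ADRM1 and 13.7% for PSMC5. For these 9 genes the level is uncertain, and a change between lines may include one of the overlapping gene.

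**Figure D1:**
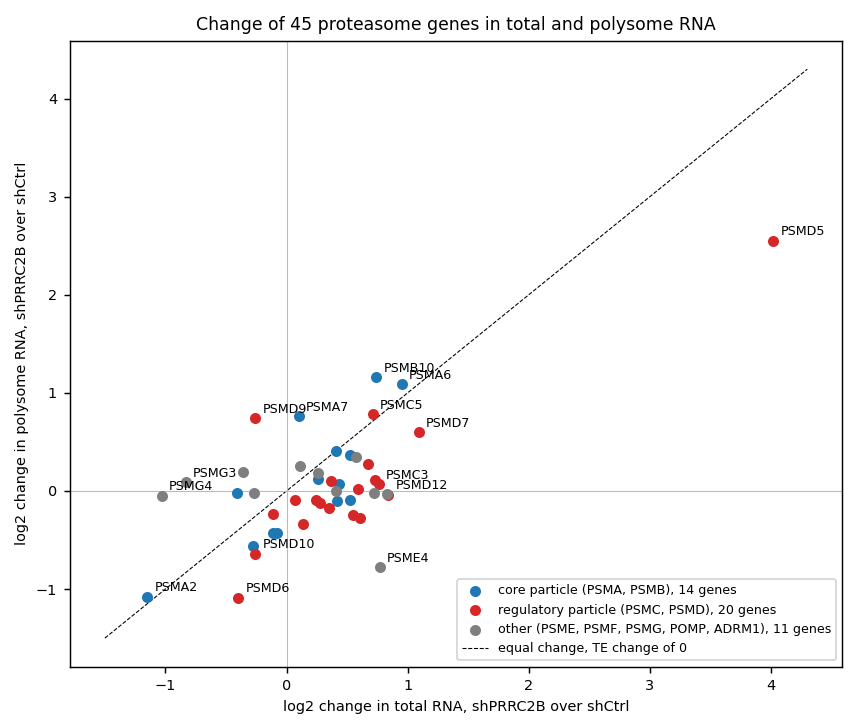
Each point is 1 of 45 tested proteasome genes, with the log2 change in total RNA (x axis) and in polysome RNA (y axis), both shPRRC2B over shCtrl, coloured by class. Most genes lie right of 0 in total RNA and near 0 in polysome RNA, so they fall under the dashed line of equal change; PSMD5 stands alone at 4.02 and 2.55.

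Total RNA asked whether the transcript levels of the subunits differed between the lines. In shPRRC2B cells, 17 of the 45 tested members were higher and 2 were lower, called at an adjusted p under 0.05 with a log2 change beyond 0.5, where 14.9% of all genes tested were called higher and 14.1% lower. The higher members comprised 10 of 20 regulatory particle genes, 3 of 14 core genes (PSMA3, PSMA6 and PSMB5) and ADRM1, PSME1, PSME3 and PSME4. The median change was 0.46 on the log2 scale for the regulatory particle, 0.34 for the core and 0.26 for the other members, beside 0.04 for all genes. Of the 45, 29 were higher in every shPRRC2B library than in any shCtrl library and 10 were lower (34.1% and 28.8% of all genes).

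Among the ATPases, 4 of 6 were higher in total RNA, and all 6 estimates were positive. PSMC3 stood at 79.2, 82.8 and 69.5 CPM in the 3 shCtrl total libraries and at 138, 129 and 126 in the shPRRC2B ones (log2 change 0.76 ± 0.12 SE, adjusted p = 0.000126 by edgeR's quasi-likelihood test, as for every p here, each adjusted after Benjamini and Hochberg). PSMC4 was at 48.8, 49.0 and 47.5 CPM against 72.8, 75.8 and 73.7 (0.61 ± 0.13). For both, the lines did not overlap. PSMC5 went from 56.6, 53.0 and 52.5 CPM to 93.0, 87.2 and 85.4 (0.71 ± 0.11, adjusted p = 0.000107), and PSMC2 from a mean of 56.3 to one of 84.4 (0.59 ± 0.12). PSMC1 and PSMC6 did not pass, at 0.37 ± 0.16 and 0.24 ± 0.16.

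Among the non-ATPase genes, PSMD1 and PSMD2, the scaffold subunits of the base, PSMD7 and PSMD12 of the lid, and PSMD11, also of the lid, were higher in total RNA, together with the chaperone PSMD5. PSMD7, the inactive partner of the deubiquitinase PSMD14, rose from 36.5, 36.3 and 35.2 CPM to 82.5, 78.8 and 69.3 (1.09 ± 0.13, adjusted p = 5.95e-06). PSMD14 itself was not called (0.14 ± 0.12). PSMD2 had 140.1, 163 and 139 CPM in shCtrl and 239, 245 and 220.2 CPM in shPRRC2B total RNA (0.67 ± 0.11, adjusted p = 0.000223). PSMD12 had 50.4, 47.4 and 54.3 against 89.1, 90.2 and 92.2 (0.84 ± 0.14, adjusted p = 0.000299). In each of these the lowest shPRRC2B library was above the highest shCtrl library. Without the 3 chaperones PSMD5, PSMD9 and PSMD10, 9 of 17 genes with PSMC or PSMD names were called higher and 0 lower, with a median of 0.55. ADRM1 and SEM1, subunits of the particle with other names, were not in this count. ADRM1 was called higher (0.57 ± 0.12) and SEM1, of the lid, lower (-0.87 ± 0.17).

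Of the genes of alternative caps, 3 of the 4 PSME genes were higher in total RNA. PSME4, the large cap protein PA200, was at 90.3, 93.1 and 96.5 CPM in shCtrl and at 157, 167 and 153 in shPRRC2B total RNA (0.77 ± 0.13, adjusted p = 0.000209). PSME3, the nuclear cap subunit PA28 gamma, was at 102, 93.9 and 109 against 183, 182 and 177 (0.83 ± 0.15, adjusted p = 0.000517). PSME1, a subunit of the PA28 alpha-beta cap, was called higher as well (0.72 ± 0.16), while its partner PSME2 was at 0.11 ± 0.14. ADRM1, a ubiquitin receptor of the regulatory particle, had 48.9, 52.3 and 46.1 CPM against 73.0, 70.2 and 75.1 (0.57 ± 0.12, adjusted p = 0.00213).

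The 2 members that were lower in total RNA were chaperones of core assembly. PSMG4 fell from 33.9, 37.9 and 32.7 CPM in shCtrl to 16.9, 15.7 and 18.5 in shPRRC2B cells (-1.03 ± 0.15, adjusted p = 7.06e-05). PSMG3, its partner in a dimer, fell from 51.9, 53.6 and 47.5 to 27.2, 31.9 and 27.0 (-0.83 ± 0.14, adjusted p = 0.000228). The other chaperone pair, PSMG1 and PSMG2, did not pass, at -0.27 ± 0.10 and 0.26 ± 0.12. POMP, which matures the core particle, had 54.0, 60.5 and 51.4 CPM against 42.5, 46.6 and 39.9. Its log2 change of -0.36 ± 0.14 was under the size threshold.

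In the core particle, the total RNA of the constitutive catalytic subunits moved unequally. PSMB5 was at 93.5, 106 and 79.3 CPM in shCtrl and 142, 136 and 123 in shPRRC2B cells (0.52 ± 0.13, adjusted p = 0.00539). PSMB6 was at 61.9, 69.8 and 57.8 against 85.2, 79.8 and 87.0 (0.41 ± 0.14, under the size threshold), and PSMB7 at 95.4, 94.9 and 86.9 against 79.98, 77.9 and 70.1 (-0.28 ± 0.12, adjusted p = 0.0844). The lines did not overlap for any of the 3, with PSMB7 the lower one in shPRRC2B cells. PSMB10 had 7 to 43 counts per library, and its change of 0.74 ± 0.43 did not pass. The calls of PSMB5 and PSMA3 lay near the size threshold: leaving out 1 library ended the PSMB5 call in 8 of 12 cases, namely any polysome library, shCtrl total replicate 3 or shPRRC2B total replicate 1 (0.42 to 0.48), and the PSMA3 call in 7, any polysome library or shCtrl total replicate 2 (0.46 to 0.47). The PSMA6 call was lost without shPRRC2B total replicate 1 (0.70, adjusted p = 0.0537).

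PSMD5 had the largest change between the lines among the members, in total and in polysome RNA. It lies at chr9:120815496-120842951 on the minus strand (GRCh38). Its total RNA libraries held 1.77, 0.584 and 0.829 CPM in shCtrl cells (47, 16 and 12 counts) and 17.0, 18.1 and 18.0 CPM in shPRRC2B cells (365, 506 and 412 counts), a log2 change of 4.02 ± 0.37 (adjusted p = 5.74e-07). The polysome libraries held 1.31, 0.651 and 0.666 CPM against 5.68, 7.36 and 2.76 (2.55 ± 0.45, adjusted p = 0.000205). All shPRRC2B libraries were above all shCtrl libraries in both fractions, and in shCtrl cells PSMD5 was the lowest regulatory particle gene per kilobase of transcript, at 0.314 CPM per kb in total RNA beside a class median of 32.3.

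The neighbours of PSMD5 were examined after its values were seen. Among 10 tested genes in a window of 250 kb on either side, PSMD5 included, CUTALP, a pseudogene that overlaps PSMD5 on the opposite strand, also had few counts in shCtrl total RNA (4, 8 and 10) and many in shPRRC2B total RNA (107, 153 and 99), a log2 change of 3.83 ± 0.49 (adjusted p = 1.67e-05). PHF19, on the far side of CUTALP, was lower in shPRRC2B total RNA (-0.86 ± 0.14, adjusted p = 0.000237) and higher in polysome RNA (0.80, adjusted p = 0.000218). TRAF1 was lower in total RNA (-1.15, adjusted p = 0.0256), and CDK5RAP2 and MEGF9 were lower in polysome RNA (-0.96 each, adjusted p = 0.00214 and 0.00017) without a call in total RNA (-0.40 and -0.01). FBXW2, B3GALT9, CNTRL and C5 passed in neither fraction. The reads cannot be assigned to a strand in these counts, and with 1 clone per shRNA the clone and the knockdown cannot be told apart at this locus.

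**Figure D2:**
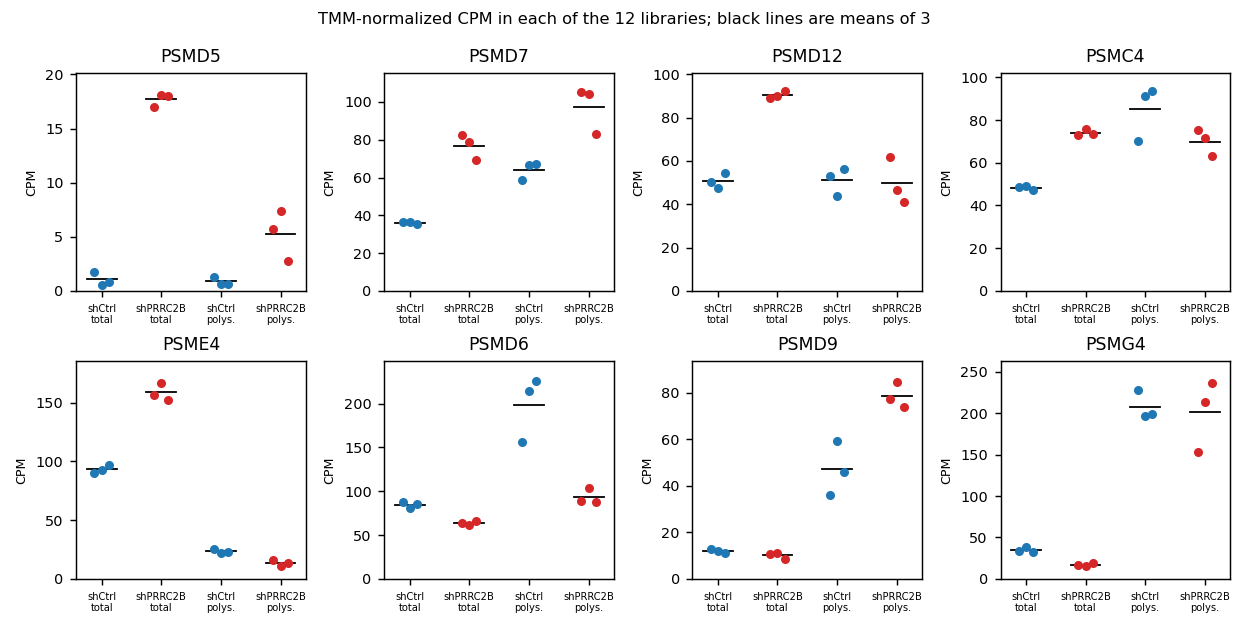
TMM-normalized CPM of 8 proteasome genes in each library (points, 3 per group) with the group mean (line), shCtrl in blue and shPRRC2B in red. PSMD12, PSMC4 and PSME4 are higher in shPRRC2B total RNA but not in shPRRC2B polysome RNA, PSMD6 is lower in polysome RNA, and PSMG4 is lower in total RNA with overlapping polysome values.

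Promoter sequences from RefSeq (GRCh38.p14, 250 bases before to 50 after the start) were found for 44 of the 50 members. The core of the antioxidant response element was searched as TGACNNNGC on both strands. It was present in 13.6% of 27305 promoters and in 14 of the 44 members (31.8%), by class in 2 of 15 core, 6 of 19 regulatory and 6 of 10 other promoters. The 2 core matches were in PSMB3 and PSMB9, which had 0 counts and were not tested. Of the 17 members higher in total RNA, 7 held it (41.2%), and of 22 other tested members with a promoter, 5 did (22.7%). The members without a promoter were PSMA7, PSMB1, PSMB6, PSMB7, PSMD4 and PSMG3. None of them was called higher in total RNA, so they are missing from the second group only. CCAAT, the other motif searched, was in 35.7% of all promoters and 45.5% of the members'. The 7 matches among the members higher in total RNA are shown because these genes rose together; the capitals mark the motif, up to 8 bases are given on either side along the gene's strand, and a motif on the opposite strand (PSMC4 and PSME4) appears as its reverse complement.
ADRM1 (chr20:62302751-62302775): ctcccctaTGACACAGCaacaatag
PSMC4 (chr19:39971184-39971208): agaggccgGCTTGGTCActatggag
PSMD1 (chr2:231056898-231056916): gaggcgacTGACTGAGCag
PSMD12 (chr17:67366726-67366750): acaaaaccTGACGCTGCaggctgga
PSMD5 (chr9:120843040-120843064): gctacagtTGACACGGCcctaacgg
PSME1 (chr14:24136100-24136124): ggcagggcTGACCCCGCctcctcca
PSME4 (chr2:53971011-53971035): cggcggctGCAGCGTCAccagcaga
The other 10 members that rose in total RNA, PSMC3, PSMC5, PSMD2, PSMD7 and PSME3 among them, had no such letters in the window. A match describes the sequence and not the binding of a factor.

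Polysome RNA was compared between the lines in the same way. In this fraction, 7 of 45 members were higher in shPRRC2B cells and 4 were lower, beside 18.4% and 21.4% of all genes tested, and the median change was 0.02 for the core, -0.06 for the regulatory particle and -0.01 for all genes. The lines did not overlap for 10 members with higher and 7 with lower values (21.6% and 21.5% of all genes). Of the 17 members called higher in total RNA, 4 were also higher in polysome RNA (PSMA6, PSMC5, PSMD5 and PSMD7), 1 was lower (PSME4) and 12 were not called, and their median change was 0.72 in total RNA and 0.07 in polysome RNA.

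PSMC5 was the ATPase that rose in both fractions. Its polysome libraries held 139.9, 126 and 136 CPM in shCtrl cells and 247, 217 and 230.1 in shPRRC2B cells (0.78 ± 0.11, adjusted p = 2.2e-05). PSMD7 had 58.8, 66.6 and 67.3 against 105, 104 and 83.0 (0.60 ± 0.13, adjusted p = 0.000918). PSMA6 had 11.6, 8.25 and 8.54 against 26.1, 17.8 and 16.7 (1.09 ± 0.24, adjusted p = 0.00118), at the low counts given above. In all 3 the shPRRC2B polysome libraries were the higher ones.

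PSMA7, PSMD9 and PSMB10 were higher in polysome RNA and were not called in total RNA. PSMA7, an alpha subunit, had 625, 726 and 520.4 CPM in shCtrl and 1050, 1117 and 998 in shPRRC2B polysomes (0.76 ± 0.14, adjusted p = 0.000257), with total RNA at 127, 141 and 115 against 143, 141 and 129. PSMD9, a chaperone of the base, had 35.97, 59.5 and 46.0 against 77.2, 84.5 and 74.1 in polysomes (0.74 ± 0.16, adjusted p = 0.00133) and 12.9, 12.1 and 11.2 against 10.7, 11.02 and 8.61 in total RNA. PSMB10 rested on 2.06, 0.760 and 1.44 CPM against 3.70, 2.29 and 3.62 (1.16 ± 0.43, adjusted p = 0.0375), and lost its call when any of 7 libraries was left out (highest adjusted p = 0.179, without shCtrl polysome replicate 2; the others were shCtrl total 1 and 2, shCtrl polysome 3, shPRRC2B total 2 and shPRRC2B polysome 1 and 3). PSMD7 was under the size threshold without shCtrl polysome replicate 1 or shPRRC2B polysome replicate 1 or 2 (0.43 to 0.48), as was PSMD9 without shCtrl polysome replicate 1 (0.49). Of the 7 calls, 5 were in genes that share over 10% of their bases with another gene name, and 2 (PSMA7 and PSMD5) were not. With the transcript length trend removed, the split was 3 higher and 6 lower (18.0% and 18.3% of all genes), and PSMC5 (0.49), PSMD7 (0.36), PSMA7 (0.45) and PSMB10 (0.85, adjusted p = 0.126) were no longer called.

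The 4 members lower in polysome RNA were PSMD6, PSME4, PSMB7 and PSMD10. PSMD6, a lid subunit at chr3:64010550-64024010, had 156, 214 and 226 CPM in shCtrl and 88.3, 104 and 88.0 in shPRRC2B polysomes (-1.09 ± 0.14, adjusted p = 7.82e-06). Its total RNA was also at lower values, 87.9, 80.9 and 84.9 against 64.2, 61.4 and 66.3, but under the size threshold (-0.40 ± 0.13). PSMB7 had 298, 355 and 337 against 249, 225 and 198 (-0.56 ± 0.12, adjusted p = 0.00127). PSMD10, the chaperone also known as gankyrin, had 139.8, 206 and 150.4 against 123, 108 and 85.9 (-0.64 ± 0.15, adjusted p = 0.00236). The PSME4 call was lost with the length trend removed (-0.33, adjusted p = 0.0587). The count of lower members was 7 when shCtrl polysome replicate 1 or shPRRC2B polysome replicate 1 was left out, where the share of all genes was not taken.

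The TE change compares the polysome-to-total ratio of shPRRC2B cells with that of shCtrl cells, on the log2 scale. Here 5 members were higher (POMP, PSMA7, PSMD9, PSMG3 and PSMG4) and 12 lower, beside 10.7% and 16.4% of all genes. In the regulatory particle 8 of 20 genes were lower (PSMC2, PSMC3, PSMC4, PSMD1, PSMD3, PSMD6, PSMD11 and PSMD12) and 1 higher, with a median of -0.49 and 18 of 20 estimates below 0. The core had 1 lower (PSMA3) and 1 higher of 14 and a median of -0.15. Over all genes tested it was -0.03. Among the others, PSME1, PSME3 and PSME4 were lower and POMP, PSMG3 and PSMG4 higher. No test of core against regulatory particle was run on these members, and the medians taken by replicate number ran from -0.31 to 0.09 in the core and from -0.62 to -0.21 in the regulatory particle. These regulatory counts and medians cover PSMC and PSMD names. Of the subunits with other names, SEM1 was higher in TE (1.24 ± 0.24) and ADRM1 was not called (-0.22 ± 0.18).

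**Figure D3:**
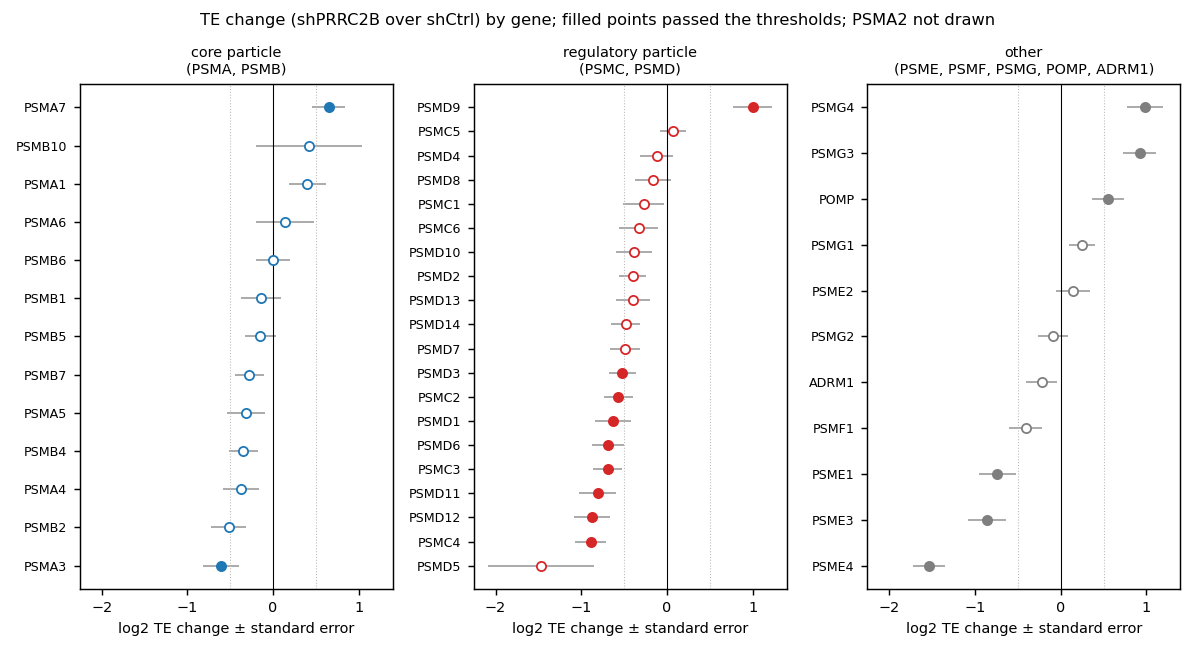
Log2 TE change (shPRRC2B over shCtrl) with its standard error for each tested gene of the core particle, the regulatory particle and the other factors, filled where the gene passed both thresholds (dotted lines at 0.5 and -0.5). In the regulatory particle 18 of 20 points lie left of 0 and PSMD9 lies at 1.00, and PSMA2 is not drawn because its standard error was 8.91.

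The lower TE values came mostly from total RNA. Of the 12 members with lower TE, 9 were called higher in total RNA only, 1 was called lower in polysome RNA only (PSMD6), 1 was called in both (PSME4) and 1 in neither (PSMD3). PSME4 had the lowest TE change, -1.54 ± 0.19 (adjusted p = 4.16e-05): its polysome libraries held 25.6, 21.8 and 23.0 CPM in shCtrl and 16.4, 11.1 and 13.5 in shPRRC2B cells, while its total RNA rose. PSMC4 was at -0.89 ± 0.18 (adjusted p = 0.00149), with 70.1, 91.0 and 93.8 CPM in shCtrl polysomes and 75.2, 71.6 and 63.0 in shPRRC2B polysomes, which overlapped.

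PSMD12 was at -0.87 ± 0.21 (adjusted p = 0.00494), with polysome values of 53.2, 43.8 and 56.4 CPM against 62.0, 46.5 and 41.0. PSME3 was at -0.86 ± 0.22 (adjusted p = 0.00796), with 68.8, 88.2 and 69.2 against 93.6, 71.6 and 57.1. PSMC3 was at -0.69 ± 0.17 (adjusted p = 0.00594), with 116, 143 and 141 against 141, 147 and 133. In these 3 genes the polysome libraries of the lines overlapped and the total RNA libraries did not. PSMD11 was at -0.81 ± 0.22 (adjusted p = 0.012), with total RNA of 99.01, 98.8 and 96.6 CPM against 144, 146 and 143 and polysome RNA of 43.8, 61.4 and 53.9 against 56.5, 42.3 and 34.3. PSMD6 was at -0.69 ± 0.19 (adjusted p = 0.0129). PSMD5, at -1.47 ± 0.62, did not pass (adjusted p = 0.0867).

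Of the 5 members with higher TE, PSMG3 and PSMG4 were called lower in total RNA only, PSMA7 and PSMD9 higher in polysome RNA only, and POMP in neither. PSMD9 had a TE change of 1.00 ± 0.23 (adjusted p = 0.00481). PSMG4, at 0.98 ± 0.21 (adjusted p = 0.00235), had 228, 197 and 199 CPM in shCtrl and 153, 214 and 237 in shPRRC2B polysomes, and PSMG3, at 0.92 ± 0.19 (adjusted p = 0.00224), had 432, 342 and 328 against 364, 364 and 442. The polysome libraries of the lines overlapped for both. PSMA7 was at 0.65 ± 0.19 (adjusted p = 0.0187). POMP was at 0.55 ± 0.19 (adjusted p = 0.0386), with 677, 600.3 and 499 against 715, 620 and 689.

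The calls of PSMC3, PSMC4, PSMD6, PSMD9, PSMD11, PSMD12, PSME3, PSME4, PSMG3 and PSMG4 were kept when any 1 of the 12 libraries was left out. POMP kept its call only without shCtrl total 3, shCtrl polysome 1 or shPRRC2B polysome 2, PSMA3 only without polysome replicate 1 of either line, and PSMD1 only without shCtrl polysome 2 or shPRRC2B polysome 1 (highest adjusted p = 0.131, 0.105 and 0.0892). PSMA7 lost its call without shCtrl total 2, shCtrl polysome 3 or shPRRC2B total 3 (adjusted p up to 0.063), PSMC2 without shCtrl total 2 or shPRRC2B total 1 or 2 (up to 0.0662), PSMD3 without shCtrl total 1 or 3, shPRRC2B total 1 or 2 or shPRRC2B polysome 3 (up to 0.0671), and PSME1 without shCtrl total 3 or shPRRC2B total 2 (up to 0.0626). The number of lower members was 20 without shCtrl polysome replicate 1 and 7 without shPRRC2B total replicate 2, and the number of higher members was 3 without shCtrl total 2, shCtrl polysome 3 or shPRRC2B total 3. The shares of all genes called were not taken with a library left out, so these counts cannot be set beside them.

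Transcript length moved with these values. The median length of the canonical transcript was 1003.5 nt in the core, 1950.5 nt in the regulatory particle and 3039.5 nt over all tested genes with a length. Across the 45 members, the TE change had a rank correlation of -0.53 with length, and across 15762 genes one of -0.41; genes are not independent replicates. The relation was also present for polysome against total RNA within shCtrl cells (-0.61 across the members). After the length trend was removed from every library, 2 members were higher in TE and 20 lower, beside 9.02% and 12.2% of all genes. The regulatory particle then had 11 lower genes and a median of -0.65, and the core had 4 lower and a median of -0.29, with -0.04 for all genes. PSME4 moved from -1.54 to -0.99 and stayed past the thresholds, as did PSMD9 and PSMG3 among the higher members. PSMA7, PSMG4, POMP and PSMD1 were no longer called, and PSMB4, PSMB5, PSMB7, PSMD7, PSMD10, PSMD13, PSMD14, PSMG2 and ADRM1 were called lower.

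**Figure D4:**
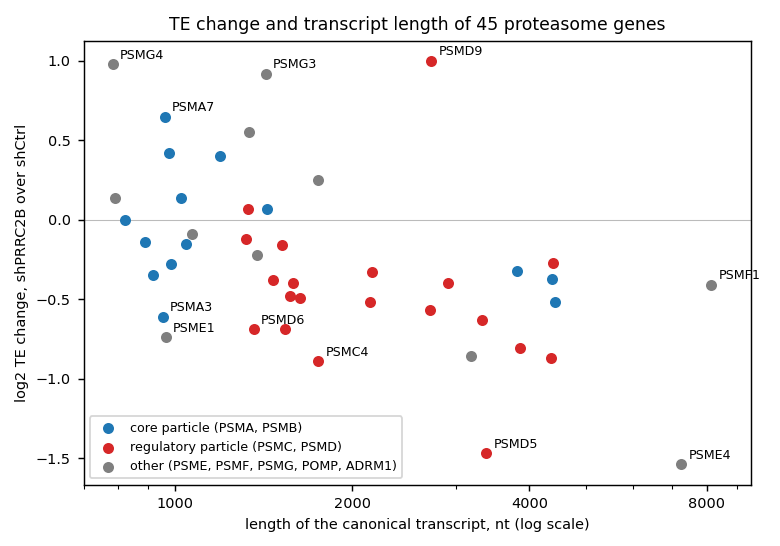
Log2 TE change (shPRRC2B over shCtrl) of the 45 tested proteasome genes against the length of the canonical transcript in nt (log axis), coloured by class. The core genes have a median of 1003.5 nt and the regulatory genes one of 1950.5 nt, and PSME4 at 7250 nt has the lowest TE change.

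Within each line, polysome RNA was compared with total RNA to describe how strongly each transcript was represented on polysomes. In shCtrl cells 35 members were higher in polysome RNA and 5 lower (32.5% and 39.8% of all genes), and in shPRRC2B cells 29 were higher and 9 lower (36.6% and 42.3%). Core genes had a median of 1.89 in shCtrl and 1.73 in shPRRC2B cells, regulatory genes one of 0.82 and 0.36, and the 5 core assembly factors PSMG1 to PSMG4 and POMP one of 2.63 and 3.56, where all genes had -0.22 in both lines. In the regulatory particle 13 genes were called higher and 3 lower in shCtrl cells, against 7 and 6 in shPRRC2B cells. The split depended on scaling: by total counts the median of all genes moved to -1.22 and -1.16, with 17 members higher and 10 lower in shCtrl cells (17.7% and 58.8% of all genes) and 17 and 16 in shPRRC2B cells (23.6% and 56.2%). At that scaling the core medians were 0.88 and 0.79 and the regulatory medians -0.18 and -0.58, so the distance of each to the median of all genes changed little. The positive medians of the core and of the regulatory particle were lost when the length trend was removed. The 11 other members, which include the assembly factors, then had medians of 0.27 in shCtrl and 0.09 in shPRRC2B cells. Of these 11, 5 were called higher and 3 lower in shCtrl cells, and 5 and 5 in shPRRC2B cells. A median of the assembly factors alone was not taken at this setting. In shCtrl cells the core median was then -0.14 and the regulatory median -0.32, beside -0.25 for all genes, with 13 members higher and 9 lower (25% and 36.2% of all genes). In shPRRC2B cells they were -0.65 and -1.11, beside -0.29, with 10 members higher and 29 lower (28.8% and 40.7%), and 16 of the 29 members called higher before were called lower.

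Per kilobase of transcript, PSMB4, a structural beta subunit, was the highest core gene in shCtrl total RNA at 175 CPM per kb (164, 169.7 and 149.6 CPM by library), and at 872 CPM per kb in shCtrl polysomes. PSMB1 led the core in shPRRC2B total RNA (169 CPM per kb) and PSMA7 in shPRRC2B polysomes (1097 CPM per kb). Among the PSMC and PSMD genes, PSMD4, a ubiquitin receptor, led total RNA in both lines (93.8 and 87.1 CPM per kb), and PSMD8 led the polysome fraction (327 and 307 CPM per kb). POMP led the other factors in polysomes at 443 and 504 CPM per kb, and PSME4 was the lowest of them at 3.23 and 1.89 CPM per kb.

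The summed level of the core and of the regulatory particle put these shifts together. In total RNA the core genes summed to 1117, 1131 and 1052 CPM in shCtrl and to 1314, 1293 and 1253 in shPRRC2B cells, and the regulatory genes to 1399, 1433 and 1371 against 1923, 1906 and 1812. The ratio of core to regulatory sum was 0.785 ± 0.0154 in shCtrl total RNA and 0.684 ± 0.0071 in shPRRC2B total RNA (SD, n = 3). In polysome RNA it was 1.76 ± 0.0577 and 1.97 ± 0.0361. The libraries of the lines did not overlap in either fraction. In polysome RNA this rested on PSMA7: without it the ratios were 1.48, 1.52 and 1.47 in shCtrl and 1.5, 1.52 and 1.49 in shPRRC2B cells, which overlapped. Each of the 34 core and regulatory genes was left out of its sum in turn, a choice made after seeing the data. The lower ratio in total RNA was kept in all 34 cases, and the higher one in polysome RNA in 33. The core sum had no PSMB3 (0 counts) and held PSMA2 and PSMA6 at the low counts given above. The regulatory sum included the chaperones PSMD5, PSMD9 and PSMD10. SEM1 and ADRM1, regulatory particle subunits with other names, were in neither sum. In polysome RNA, SEM1 stood at 602 ± 174 CPM in shCtrl cells (798, 542.3 and 465.1 by library). In shPRRC2B polysomes it stood at 776 ± 93.4 (711.5, 734 and 883.4). The regulatory sums there were 1994, 2645 and 2441 against 2406, 2254 and 2083, so SEM1 is large beside them. The ratios therefore describe the PSMA to PSMD names only. Ratios with SEM1 in the regulatory sum were not calculated, and the higher polysome ratio is not shown for the whole particle. Expressed per kilobase, the ratios were 1.22, 1.09, 2.58 and 3.01 in the same order.

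**Figure D5:**
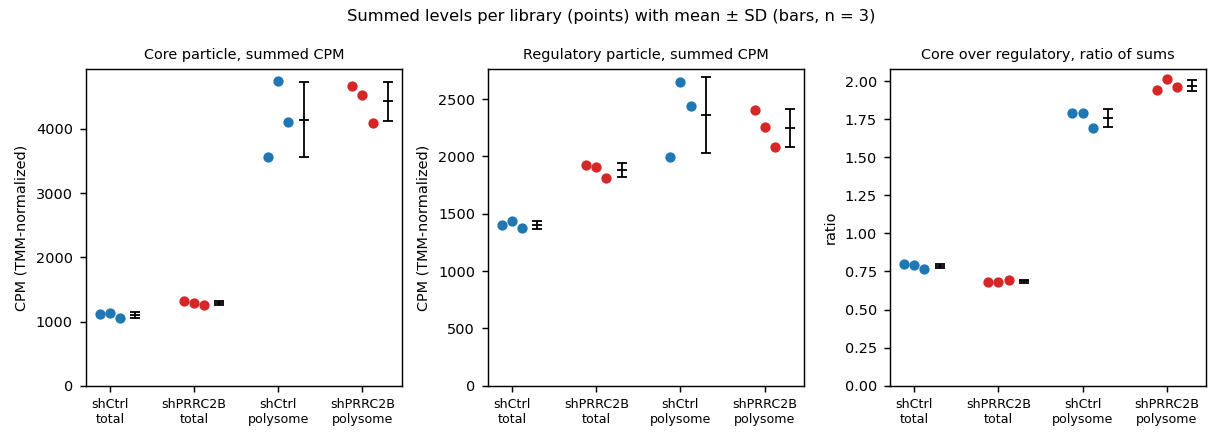
Summed CPM of the core (PSMA, PSMB) and of the regulatory particle (PSMC, PSMD) genes and the ratio of the sums in each library (points), with mean ± SD of 3 libraries (bars), shCtrl in blue and shPRRC2B in red. The ratio of the shPRRC2B libraries lies below the shCtrl libraries in total RNA (0.684 against 0.785) and above them in polysome RNA (1.97 against 1.76), where it is 1.5 against 1.49 without PSMA7. SEM1 and ADRM1 are in neither sum.

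The 28 other genes of the pathway that were examined, regulators and partners of the proteasome, were all tested. In total RNA 2 were higher (DDI2 and NPLOC4) and 4 lower (NGLY1, SEM1 and RPS27A among them; 14.9% and 14.1% of all genes), with a median of -0.10. In polysome RNA 1 was higher and 12 lower (18.4% and 21.4% of all genes), with a median of -0.46. TE was higher for 4 and lower for 11 (10.7% and 16.4% of all genes), with a median of -0.47. The median transcript length of these 28 genes was 3880 nt, beside 3039.5 nt over all tested genes with a length. The length trend described above was not removed from their values. NFE2L1 was not called in any of the 3 comparisons between the lines (total RNA 0.15 ± 0.15). DDI2, the protease that activates NFE2L1, was at 45.9 ± 2.72 CPM in shCtrl and 97.9 ± 2.3 in shPRRC2B total RNA (1.10 ± 0.17, adjusted p = 9.78e-05) and had a TE change of -1.62 ± 0.29. NGLY1, which deglycosylates NFE2L1, was lower in total RNA (-0.93 ± 0.14, adjusted p = 8.1e-05).

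NFE2L2 was lower in TE, at -0.81 ± 0.18, and in polysome RNA, at -0.58 ± 0.13. MIDN, IPO9 and ECPAS, which act on proteasome substrates, nuclear import of the proteasome and its quality control, had TE changes of -1.39, -0.89 and -1.08. USP14, the deubiquitinase bound to the regulatory particle, was at -0.85, VCP, the unfoldase that delivers substrates, at -0.84, TXNL1 at -0.77, UBQLN4 at -0.83, UBQLN2 at -0.66 and RAD23B at -0.60. Among the 4 with higher TE, SEM1 was at 1.24 and PITHD1 at 0.58. SEM1, the smallest lid subunit, whose name lies outside the PSMD series, was at 54.4 ± 4.34 CPM in shCtrl and 29.8 ± 1.13 in shPRRC2B total RNA (-0.87 ± 0.17, adjusted p = 0.000873).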

How the data were processed

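The authors deposited raw counts of read pairs per gene name for 12 libraries, without normalization. Per the methods and the submitters' processing notes, reads were trimmed with Trimmomatic 0.36, aligned to GRCh38 with HISAT2 (2.1.0 in the notes, another version in the methods) and counted with featureCounts (Subread 2.0.1) on GENCODE 38 names. No strand option is given, and pairs that map to several places or genes are not counted by default. Columns of no sample came to 0.

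Tests used edgeR 4.0.16 (R 4.3.3): filterByExpr (minimum count 10), TMM, and glmQLFit and glmQLFTest with 4 groups of line and fraction, which share 1 estimate of the spread. Calls required a Benjamini-Hochberg adjusted p under 0.05 over 18166 genes and a log2 change beyond 0.5. Standard error (SE) is the log2 change divided by the root of F. CPM and SD use TMM library sizes, and a level per kilobase is CPM divided by the canonical transcript length of GENCODE 44. Transcripts were aligned to the reference with minimap2 2.31 (copies: 95% coverage, 99% identity) to find copies. Scripts were tested on simulated data. Alternatives were DESeq2 1.42.0, RLE factors, scaling by total counts, no filter, limma 3.58.1 on log2(CPM + 1), a replicate block, removal of a length trend (lowess span 0.3) alone and with the block, no size threshold, and each library left out. Intervals of single shares were not needed.

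Every member could be named. Values of some genes of the wider pathway list are not reported here. Values in every library were set out for the 10 lowest adjusted p values of each comparison between the lines, the catalytic subunits, POMP, ADRM1 and the highest member of each class per kilobase. The members, the gene lists and the tests were chosen with earlier results of these data known, so no list's direction is independent evidence.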

Additional observations from a re-analysis of the deposited data

Results flagged for a closer look

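For 17 members the polysome-to-total ratio differed between the lines by edgeR's quasi-likelihood test of the difference. Lower TE changes were found for PSME4 (-1.54), PSMC4 (-0.89), PSMD12 (-0.87), PSME3 (-0.86), PSMD11 (-0.81), PSME1 (-0.74), PSMC3 (-0.69), PSMD6 (-0.69), PSMD1 (-0.63), PSMA3 (-0.61), PSMC2 (-0.57) and PSMD3 (-0.52). Higher ones were found for PSMD9 (1.00), PSMG4 (0.98), PSMG3 (0.92), PSMA7 (0.65) and POMP (0.55). The log2 difference of polysome and total RNA in shCtrl and in shPRRC2B cells was 0.81 and -0.08 for PSMC4, 0.01 and -0.86 for PSMD12, 0.79 and 0.10 for PSMC3, and -1.99 and -3.53 for PSME4. The causes were not tested.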

How the results depend on the processing

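No TE, total RNA or polysome RNA call of a member changed direction under an alternative. The median TE change was -0.15 in the core and -0.49 in the regulatory particle. Under the alternatives it ran from -0.29 to -0.07 in the core and from -0.65 to -0.43 in the regulatory particle. These moves were smaller than the SD over replicate numbers (0.204 and 0.224). That SD depends on how the libraries were numbered and is no firm measure of stability. TE calls numbered 5 higher and 12 lower in the analysis reported. Removing the length trend gave 2 and 20, and adding a replicate block to that gave 1 and 20 (8.23% and 11.2% of all genes). Counts ran from 3 to 5 and from 7 to 20 with 1 library left out. Shares of all genes were not taken with a library left out or without the size threshold. Scaling by total counts gave 5 and 8 (11.7% and 14.4% of all genes). Total RNA had 13 higher members instead of 17 when scaled by total counts (11.8% of all genes). The number was also 13 without the members that share over 10% of their bases with another gene name. Lower members in total RNA numbered 4 instead of 2 without the size threshold. Polysome RNA had 3 higher members instead of 7 with the length trend removed, with or without the block, and 2 when members that share over 10% of their bases with another gene name were left out, a choice made after seeing the data. It had 7 lower members instead of 4 without the size threshold, and 4 to 7 with 1 library left out. Polysome against total RNA, with 35 higher and 5 lower members in shCtrl cells and 29 and 9 in shPRRC2B cells, gave 17 and 10 and 17 and 16 when scaled by total counts, 13 and 9 and 10 and 29 without the length trend, and 13 and 10 and 10 and 28 without it and with the block. Of the members called higher there, 4 in shCtrl and 16 in shPRRC2B cells were called lower without the length trend. The difference between the lines in the core-to-regulatory ratio went from 0.22 to 0.01 in polysome RNA and from -0.10 to -0.08 in total RNA when PSMA7 was left out, also a choice made after seeing the data. The replicate block alone gave 5 and 11 TE calls and ended that of PSMA3 and no other call of a member in TE, total or polysome RNA. Same-numbered libraries had correlated deviations of -0.22 to 0.17, so the numbers were not taken as pairs. Causes of these shifts were not tested. Tested members with under 50 counts in every library (PSMA2 and PSMB10) or in every shCtrl library (PSMD5) are limited by these low counts. PSMA6 had 48 in shCtrl total replicate 3, and PSMD5 had 29 in shPRRC2B polysome replicate 3. PSMA2, PSMA6 and PSMB10 also share bases with an overlapping gene name, as given above.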
